A study of Mus musculus with 6 samples.

Results

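The genes described here carry symbols made of Zfp and a number, the mouse names for zinc finger proteins. Their members were chosen by level. A symbol was kept when it had at least 1 FPKM (a fragment count divided by transcript length and by sequencing depth) in at least 3 of the 6 libraries. This left 277 members among 360 Zfp symbols and 24346 symbols in all. Splenic follicular (Fo) B cells, the recirculating mature B cells of the spleen, were profiled by RNA sequencing at 8 weeks of age in 3 libraries from B6 control mice (called WT) and 3 from mice with the G9gl knock-in, homozygous at both the heavy and the light (HL) chain. The comparison addresses how gene expression differs in G9gl B cells, which the submitters describe as anergic, that is, poorly responsive to antigen. No source used here gives the origin or specificity of the knocked-in receptor. Both groups were sorted through 1 gate (B220+, CD93-, low CD21, high CD23). No label says that libraries of 1 group came from separate animals, so p-values measure the spread between these libraries, which may be technical.

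A zinc finger is a short protein fold held together by a zinc ion. In the common C2H2 type a pair of cysteines and a pair of histidines bind the zinc, and arrays of such fingers read DNA sequence. Many mouse Zfp proteins also carry a KRAB box at the amino end, which recruits the corepressor Trim28 (KAP1) and the histone methyltransferase Setdb1 and so silences retroelements and other sites. KRAB genes sit in tandem clusters of recent copies. Other Zfp proteins act without KRAB, for example Zfp318, which mature B cells need to make IgD by alternative RNA processing, and Zfp36 (tristetraprolin), which has CCCH fingers and promotes decay of messages with AU-rich elements.

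The threshold tied membership to level, not to genotype. All 6 libraries reached 1 FPKM for 263 of the 277 members. Zfp365 and Zfp827 reached it in the libraries of 1 group only, so for these the choice itself required a difference between groups. The members nearest the threshold from inside were Zfp827, Zfp473 and Zfp563, whose values ranked the third from the top were 1.003, 1.01 and 1.03 FPKM. The nearest outside were Zfp609, Zfp770 and Zfp658, at 0.983, 0.950 and 0.942 FPKM. Of the 83 symbols left out, 5 were listed at 0 in every library and 71 never reached 1 FPKM.

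In the GENCODE annotation, 149 members encoded a KRAB box core and 120 encoded C2H2 fingers without one. Another 4 (Zfp36, Zfp330, Zfp365 and Zfp839) matched neither pattern, and 4 had no matching coding sequence. Near the boundary of the KRAB pattern lay 11 members. KRAB proteins held a median of 12 C2H2 fingers and the others a median of 7.5, with the most, 37, in Zfp142.

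Promoter windows of these classes held motifs in different shares, given as a description. In the 250 bases before each annotated start, a GC box (GGGCGG, both strands) was found in 29.8% of 151 KRAB windows and in 58.0% of 131 windows of C2H2 members without KRAB, against 58.5% of windows of tested genes and 32.7% of all windows. A CCAAT box (CCAAT, both strands) was found in 53.6% and 37.4% of these windows, against 35.9% and 33.8%. Of the members whose level differed by genotype, 6 had a single window free of annotated exons. The 4 shown here let 2 members higher and 2 members lower in G9gl be read side by side, with 1 KRAB gene in each pair (RefSeq, GRCm38.p6, 5′ to 3′). Capitals mark a GC box, a CCAAT box, TATAAA or the NRF1 motif (GCGC, any 2 bases, GCGC) on either strand. TATAAA was in 12.4% of all windows and 6.06% of windows of tested genes, and the NRF1 motif in 4.98% and 11.5%. CCGGAAG (6.91% and 15.4%) and TGACGTCA (1.55% and 2.77%) were searched as well.
Zfp365, higher in G9gl, chr10:67912663-67912912, minus strand: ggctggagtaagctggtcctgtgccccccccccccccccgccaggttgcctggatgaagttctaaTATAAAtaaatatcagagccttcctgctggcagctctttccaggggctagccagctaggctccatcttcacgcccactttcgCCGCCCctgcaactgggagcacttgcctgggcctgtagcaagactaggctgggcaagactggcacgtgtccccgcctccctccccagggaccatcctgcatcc
Zfp442, KRAB, higher in G9gl, chr2:150451502-150451751, minus strand: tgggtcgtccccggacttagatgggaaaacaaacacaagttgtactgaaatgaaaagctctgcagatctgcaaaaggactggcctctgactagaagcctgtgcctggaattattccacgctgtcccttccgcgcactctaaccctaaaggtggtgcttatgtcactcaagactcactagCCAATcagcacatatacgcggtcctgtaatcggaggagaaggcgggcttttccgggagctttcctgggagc
Zfp784, lower in G9gl, chr7:5038447-5038696, minus strand: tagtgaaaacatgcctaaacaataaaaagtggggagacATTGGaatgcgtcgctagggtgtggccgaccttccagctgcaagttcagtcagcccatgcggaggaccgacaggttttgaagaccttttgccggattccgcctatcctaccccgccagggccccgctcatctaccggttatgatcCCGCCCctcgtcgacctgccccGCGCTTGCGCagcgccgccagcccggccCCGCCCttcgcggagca
Zfp746, KRAB, lower in G9gl, chr6:48086594-48086843, minus strand: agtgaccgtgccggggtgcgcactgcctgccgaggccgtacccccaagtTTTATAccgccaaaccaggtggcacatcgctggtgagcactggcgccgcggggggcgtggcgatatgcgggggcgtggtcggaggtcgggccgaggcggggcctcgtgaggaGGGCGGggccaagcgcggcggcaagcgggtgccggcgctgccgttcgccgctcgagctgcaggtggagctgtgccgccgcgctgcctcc
The windows of Zfp365 and Zfp746 each held 1 GC box and 1 TATAAA, and that of Zfp784 held 2 GC boxes, 1 CCAAT box and the NRF1 motif. The Zfp442 window held a CCAAT box only. Matches of letters are descriptions and do not show binding.

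Most Zfp genes were expressed at low levels in Fo B cells. The median of mean FPKM was 6.37 over the members and 15.8 over all 10122 genes that passed the same threshold and were tested. Together the members made up 0.539% to 0.544% of summed FPKM in WT and 0.466% to 0.513% in G9gl. Their summed FPKM was 3280 to 3296 in WT and 3132 to 3376 in G9gl, which overlap, while the total over all genes was 603054 to 611557 in WT and 657759 to 671533 in G9gl.

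Zfp36 was by far the most abundant member, at 401.5, 425.8 and 385.0 FPKM in WT replicates 1 to 3 and 444.8, 444.8 and 449.0 FPKM in G9gl replicates 1 to 3. Every G9gl library lay above every WT library, but the difference did not pass the test (log2 fold change 0.14 ± 0.051 SE, limma adjusted p 0.070), and with quantile normalization the log2 fold change was -0.012. Zfp207, a spindle assembly and RNA-binding protein, followed, at 95.4 ± 7.03 FPKM in WT libraries and 107 ± 19.4 FPKM in G9gl libraries (SD over n = 3 libraries a group, here and in later values). It did not pass (log2 fold change 0.16, adjusted p 0.39), but without G9gl replicate 1, the lowest G9gl library, it was called higher (0.31, adjusted p 0.015). Zfp706, Zfp318, Zfp263 and Zfp511 came next. Zfp263 had 55.4 ± 3.32 and 50.2 ± 2.54 FPKM and Zfp511 had 45.3 ± 3.39 and 47.7 ± 4.28 FPKM in WT and G9gl, and neither passed (adjusted p 0.17 and 0.58).

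Few members differed by genotype, and more of those that did were lower in G9gl. Of 277 members, 15 fell and 6 rose (limma on log2(FPKM + 1), Benjamini-Hochberg adjusted p under 0.05 over all 10122 tested genes). Over all tested genes 11.6% fell and 11.8% rose, in all 23.4%, against 5.42%, 2.17% and 7.58% of the members. Without Zfp365 and Zfp827 the counts were 14 and 5 of 275. Groups that did not overlap were counted the same way. In 46 members every G9gl library lay below every WT library and in 20 above, 16.6% and 7.22%, against 20.5% and 20.3% of all tested genes.

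Single libraries moved these counts. Without WT replicate 2, 5 members were lower and 4 higher, against 7.09% and 8.17% of all tested genes. Without WT replicate 3, 9 were lower and 5 higher (8.77% and 9.78% of all tested genes), and without G9gl replicate 3 the member counts were also 9 and 5 (8.33% and 9.27%). Without G9gl replicate 1, 14 were lower and 10 higher (11.6% and 11.2%). With no filter on low values 6 members were lower and 4 higher, where 4.11% and 5.07% of 19079 genes were. When each library was rescaled to the same summed FPKM, 57 members were lower and 5 higher, and 24.7% of all tested genes were lower and 7.21% higher. That rescaling moved the median log2 fold change of all tested genes from -0.0022 to -0.12, and that of the members from -0.034 to -0.14.

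The signs of all members, called or not, were close to balanced. The log2 fold change was negative in 153 members and positive in 124, so 55.2% were negative against 50.3% of all tested genes. Without G9gl replicate 1 the share was 49.8%, and with libraries rescaled to equal totals it was 73.3% against 70.0% of all tested genes. The quartiles of the members were -0.16 and 0.12, and those of all tested genes -0.16 and 0.16. Below the threshold, 57 of the 83 Zfp symbols left out had a higher mean in G9gl and 21 in WT, at values near the floor. With no filter on low values 41.5% of 19079 genes had a negative log2 fold change.

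**Figure D1:**
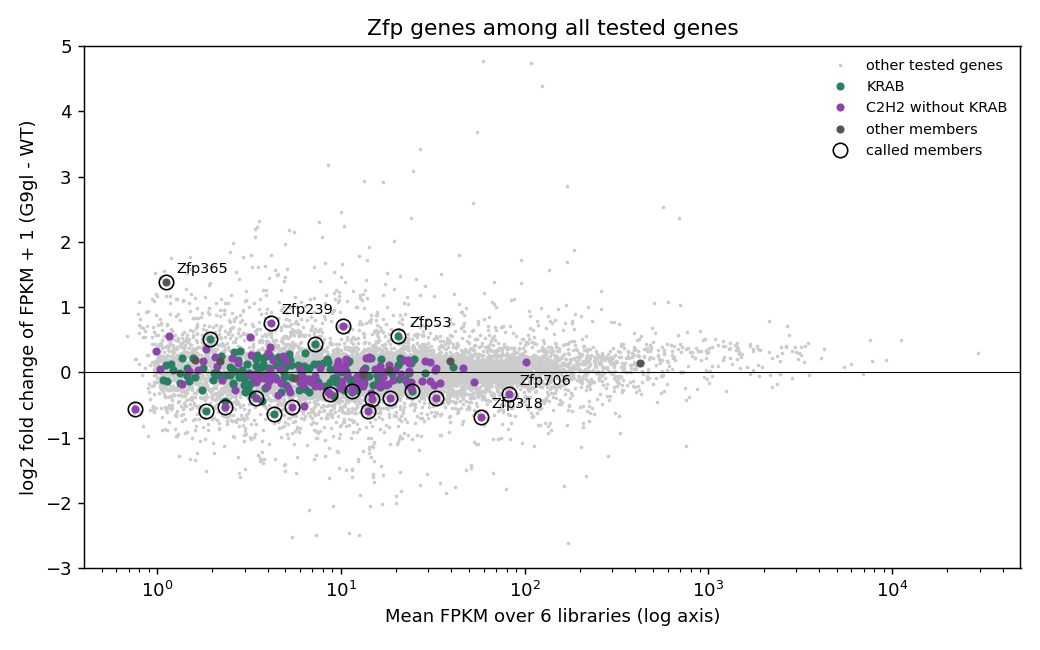
Log2 fold change of FPKM + 1 (G9gl minus WT, vertical axis) against mean FPKM over the 6 libraries (horizontal log axis) for each tested gene. Grey points are the other tested genes, coloured points are the 277 Zfp members by protein class, and circles mark the 21 called members, with Zfp365 at the top and Zfp318 at the bottom.

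On the scale of log2(FPKM + 1), changes of Zfp genes were small at each level of expression. A fold change of at least 1.5 in either direction was seen in 2.53% of members, against 8.32% of all tested genes. Conversely, the 95% confidence interval lay within 1.5-fold for 84.1% of members and within 2-fold for 97.8%, against 77.4% and 93.3% of all tested genes. These are folds of FPKM + 1, which understate low genes, so the fold of FPKM itself can be larger. Among genes with a mean under 5 FPKM, 8 of 115 members were called, 6.96% against a background of 18.7%. The median standard error there was 0.146 for members and 0.151 for all genes, and the median absolute log2 fold change was 0.142 and 0.213. From 5 to under 20 FPKM, 8 of 125 members were called, 6.40% against 19.6%, with median standard errors of 0.107 and 0.103. At 20 FPKM and over, 5 of 37 were called, 13.5% against 28.7%, where the median absolute log2 fold change was 0.149 for members and 0.142 for all genes. At the estimated depth of 10460000 to 12280000 fragments per library, a transcript 2 kb long listed at 1 FPKM had some 18.3 to 21.5 fragments behind it.

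**Figure D2:**
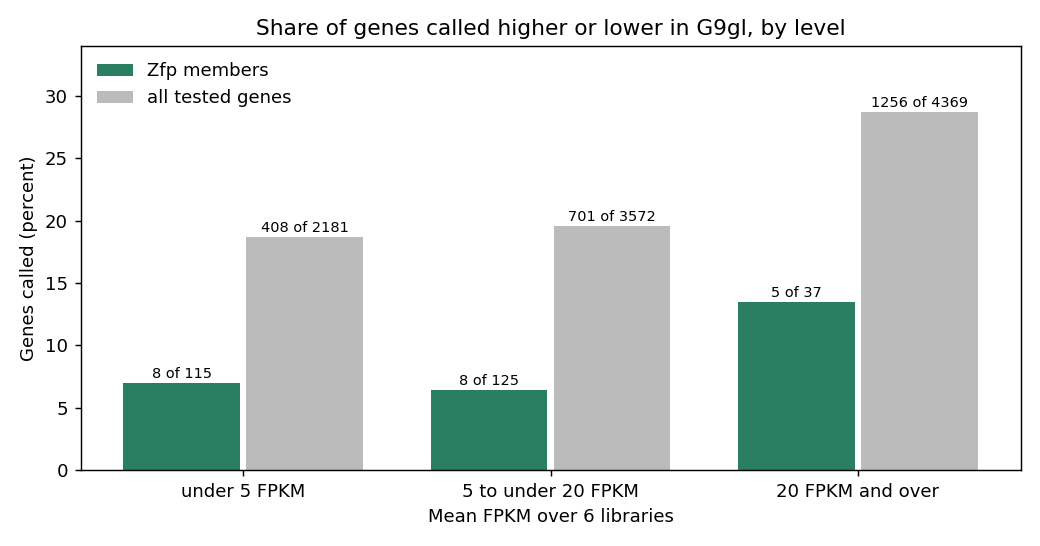
Percent of genes called higher or lower in G9gl (bars, starting at 0) in 3 ranges of mean FPKM, for Zfp members (green) and all tested genes (grey), with the counts above each bar. The member bars are 6.96%, 6.40% and 13.5%, each below the grey bar beside it.

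Zfp318 (chromosome 17, 46383731 to 46420920, mm10) had the lowest log2 fold change of FPKM + 1 in the family. Its level was 72.2, 74.5 and 65.0 FPKM in the WT libraries and 59.1, 28.8 and 47.6 FPKM in the G9gl libraries. All G9gl values lay below all WT values, and G9gl replicate 2 was the lowest. The fall was 1.61-fold (log2 fold change -0.69 ± 0.21 SE, limma adjusted p 0.040). Leaving out WT replicate 1, 2 or 3 or G9gl replicate 3 ended the call, with adjusted p of 0.10, 0.12, 0.071 and 0.058, and it held in 11 of 20 alternative settings (adjusted p 0.0045 to 0.14). The ranking depends on this scale, which understates low genes. As a ratio of FPKM itself the low member Zfp827 fell further, from 1.10 FPKM in WT to 0.425 FPKM in G9gl.

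Of the 15 falls, 4 held in each alternative that fitted the gene. Zfp706, a short single-finger protein gene tied to exit from stem cell self-renewal, had 93.5, 91.3 and 89.1 FPKM in WT and 72.1, 73.3 and 72.3 FPKM in G9gl. The groups were tight and far apart, a 1.25-fold fall (log2 fold change -0.33 ± 0.052 SE, adjusted p 0.0019). Zfp740 had 37.6, 37.5 and 37.6 FPKM in WT and 29.7, 29.2 and 26.7 FPKM in G9gl, a 1.31-fold fall (adjusted p 0.0029). Zfp821 fell 1.502-fold, from 17.1 ± 1.13 to 11.1 ± 1.52 FPKM (adjusted p 0.0034). The KRAB gene Zfp169 (chromosome 13, 48487647 to 48513451) fell 1.56-fold, from 5.49 ± 0.536 to 3.16 ± 0.442 FPKM (adjusted p 0.0051).

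The other 11 falls, Zfp318 included, lost the call in at least 1 alternative. Zfp553 fell from 17.1 ± 1.16 to 12.6 ± 1.28 FPKM (adjusted p 0.012) and was not called without WT replicate 2 (0.055). Zfp524 fell from 21.1 ± 1.58 to 15.8 ± 2.22 FPKM (0.027), but not without WT replicate 1 or 2 (0.081 and 0.098). Zfp784 fell from 6.63 ± 0.929 to 4.29 ± 0.499 FPKM (0.016), but not without WT replicate 1 or 2 or G9gl replicate 2 (0.060, 0.064 and 0.055). All 3 encode C2H2 proteins without KRAB.

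Zfp385a, also known as Hzf, a p53 target that binds RNA, fell from 2.96 ± 0.336 to 1.75 ± 0.221 FPKM (adjusted p 0.019). The call was lost without WT replicate 2 or 3 or G9gl replicate 3 (0.070, 0.064 and 0.067). The KRAB gene Zfp369 fell from 2.42 ± 0.195 to 1.29 ± 0.459 FPKM (0.032), but not without WT replicate 1, 2 or 3 or G9gl replicate 3 (0.094, 0.086, 0.059 and 0.090). Zfp827, a member only through its WT libraries, had 1.10 ± 0.139 and 0.425 ± 0.077 FPKM (0.025). Without G9gl replicate 3 it was called, and without each other library it was not (0.051 to 0.089).

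Zfp831 fell from 12.7 ± 0.829 to 10.2 ± 0.327 FPKM (adjusted p 0.036), but the call was lost on omitting replicate 2 or 3 of either group (0.093 to 0.11). Zfp668, implicated in DNA repair, fell from 9.87 ± 0.433 to 7.66 ± 0.296 FPKM (0.024), and leaving out WT replicate 3 was the only omission that kept the call (0.053 to 0.089 without the others). Zfp746 (PARIS), a KRAB repressor of the mitochondrial regulator PGC-1alpha, fell from 26.8 ± 0.205 to 22.0 ± 2.60 FPKM (0.047), and only leaving out G9gl replicate 1 kept the call (0.10 to 0.16 without the others). Zfp395 fell from 4.02 ± 0.085 to 2.86 ± 0.457 FPKM (0.048), and only leaving out G9gl replicate 2 kept the call (0.095 to 0.13 without the others). In each of the 15 genes that fell all G9gl values lay below all WT values.

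**Figure D3:**
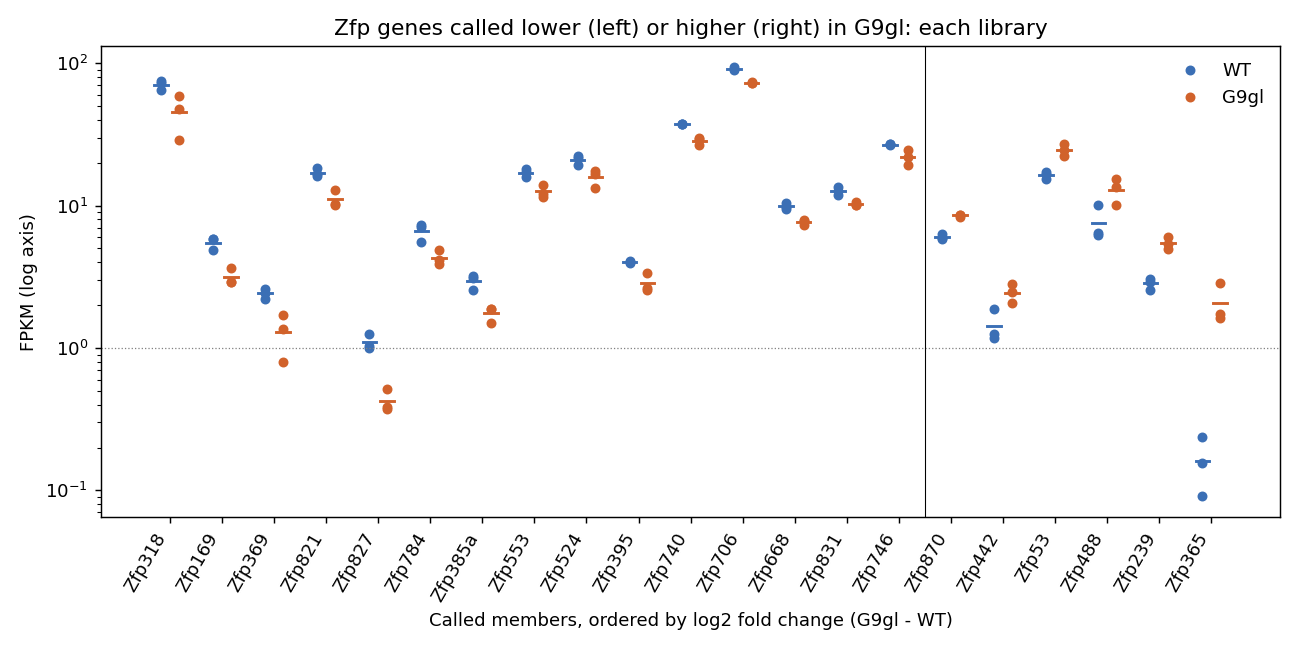
FPKM (vertical log axis) of each library for the 21 called members, ordered by log2 fold change, with WT in blue, G9gl in orange, 3 points per group and a short line at each mean. The dotted line is 1 FPKM. The groups do not touch in any gene left of the vertical line, and right of it they meet only in Zfp488.

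Zfp365 (chromosome 10, 67886103 to 67912662), known for a role in genome stability, rose most. It was at 0.155, 0.0915 and 0.238 FPKM in WT and at 1.73, 1.62 and 2.84 FPKM in G9gl, so it was near the limit of detection in WT. The log2 fold change was 1.38 ± 0.18 SE (adjusted p 7.1e-04), 2.60-fold on this scale, which understates low genes. It held in 19 of 19 alternatives that fitted it. Membership required the G9gl libraries to be the higher group.

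Zfp239, a C2H2 gene also called Mok2, rose 1.68-fold. It had 3.06, 2.90 and 2.57 FPKM in WT and 5.40, 6.05 and 4.97 FPKM in G9gl, with no overlap (log2 fold change 0.75 ± 0.12 SE, adjusted p 0.0017). The KRAB gene Zfp53 (chromosome 17, 21488998 to 21510473) rose 1.48-fold, from 16.6, 15.4 and 17.3 FPKM in WT to 24.6, 22.4 and 27.1 FPKM in G9gl (adjusted p 0.0019). Zfp870, another KRAB gene, rose 1.35-fold. WT libraries held 5.81, 5.97 and 6.31 FPKM and G9gl libraries 8.38, 8.59 and 8.60 FPKM (adjusted p 0.0067). Calls for Zfp239, Zfp53 and Zfp870 held in each alternative that fitted them.

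The KRAB gene Zfp442 rose from 1.43 ± 0.385 to 2.45 ± 0.364 FPKM (adjusted p 0.044). Omitting replicate 2 or 3 of either group ended the call (0.11 to 0.14). Zfp488, known from oligodendrocyte differentiation, rose from 7.57 ± 2.16 to 12.9 ± 2.70 FPKM (0.023). It was the 1 called member whose groups met, at 10.06 FPKM in WT replicate 3 and 10.05 FPKM in G9gl replicate 3, and it was not called without WT replicate 1 or 2 or G9gl replicate 2 (0.083, 0.089 and 0.073).

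Of 19 members on the panel of Zfp genes with known roles, 0 rose and 3 fell by limma (Zfp318, Zfp706 and Zfp831). That was 15.8% called, against 23.4% of all tested genes. An unadjusted p under 0.05 was seen in 7 of the 19, and in 3689 of all 10122 tested genes. None of the 8 panel members described next passed. Zfp143, an activator of small nuclear RNA genes, was at 23.1, 23.8 and 23.3 FPKM in WT and 23.4, 24.1 and 24.0 FPKM in G9gl, with a 95% confidence interval of the log2 fold change from -0.12 to 0.17. Zfp148 (-0.16 to 0.26), Zfp217 (-0.084 to 0.45), Zfp281 (-0.022 to 0.44) and Zfp292 (-0.29 to 0.046) had intervals that included 0. Zfp410, which sustains expression of the chromatin remodeller gene Chd4, had 20.7 ± 0.898 and 23.7 ± 0.866 FPKM without overlap (interval 0.031 to 0.35, adjusted p 0.084). Zfp335, a nuclear factor needed for lymphocyte development, had 26.2 ± 1.87 and 22.0 ± 1.02 FPKM without overlap (adjusted p 0.054). It passed in 5 of 20 alternatives, but once a trend on GC content and length was taken out its log2 fold change went from -0.24 to -0.062 (adjusted p 0.54). Zfp91, a ubiquitin ligase of noncanonical NF-kB signalling, had 6.65 ± 0.565 and 5.76 ± 0.959 FPKM (0.32), and the table lists a read-through symbol with the neighbouring gene Cntf that could share its fragments.

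Of 11 members on a list of RNA-binding and ribosome-associated Zfp genes, Zfp385a alone passed (9.09% called, against 23.4% of all tested genes). Zfp598, which senses collided ribosomes, had 17.4 ± 0.339 and 14.9 ± 1.45 FPKM (adjusted p 0.10). Zfp622, a ribosome maturation factor, ranged from 26.9 to 40.9 FPKM within G9gl, around the WT mean of 31.8 FPKM. Zfp106 and Zfp638, both RNA-binding, had adjusted p of 0.22 and 0.23. These 11 genes had a median log2 fold change of 0.031.

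Of 11 genes on a list tied to retroelement silencing and imprinting, 7 were members. Of these 7, 0 were called by limma, against 23.4% of all tested genes. An unadjusted p under 0.05 was seen in 2 of them, and in 3689 of all 10122 tested genes. Zfp809, which recognises a retroviral primer binding site, had 24.9 ± 0.843 and 21.8 ± 2.75 FPKM (adjusted p 0.18), and it passed as lower in 3 of 20 alternatives. Zfp445, a guardian of imprints, had 13.3 ± 1.43 and 11.8 ± 0.846 FPKM (0.28). Zfp57, the other imprint regulator of this kind, was at most 0.132 FPKM in any library and is no member.

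Calls were counted by protein class, and the difference between classes was not tested. KRAB genes had 3 higher and 3 lower of 149, 4.03%, and C2H2 genes without KRAB had 2 higher and 12 lower of 120, 11.7%. The medians of the log2 fold change were -0.034 in KRAB genes and -0.053 in C2H2 genes without KRAB. The classes also differed in level and composition, with a median of mean FPKM of 4.93 and 9.94 and a median transcript GC content of 41.5% and 50.5%. Their part in the counts was not tested. Of 179 members that lay within 500 kb of another member, 4 rose and 5 fell (2.23% and 2.79%). Of 96 with no such neighbour 2 rose and 10 fell (2.08% and 10.4%), against 11.8% and 11.6% of all tested genes.

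Clusters of neighbouring Zfp genes were summarised by library, and they differed in whether the genotypes separated. In the 16 members at 21008903 to 23564238 on chromosome 17, the median deviation from each gene's mean was 0.092, -0.21 and -0.054 in WT replicates 1 to 3 and -0.15, 0.091 and 0.23 in G9gl replicates 1 to 3. The order of libraries thus mixed the genotypes. The 9 members at 47835661 to 48623227 on chromosome 6 did not mix them, with medians of 0.022, 0.13 and 0.11 in WT and -0.059, -0.20 and -0.045 in G9gl. Of these 9, 7 had a negative log2 fold change (77.8%, against 50.3% of all tested genes). In 3 every G9gl library lay below every WT library (33.3% against 20.5%). Zfp746 alone passed, as lower (11.1% against 11.6%). Over all 149 KRAB members the medians ran from -0.095 in G9gl replicate 1 to 0.077 in G9gl replicate 3, whereas all tested genes stayed between -0.0044 and 0.0075. Neighbouring copies are similar in sequence, and fragments could be split among them.

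**Figure D4:**
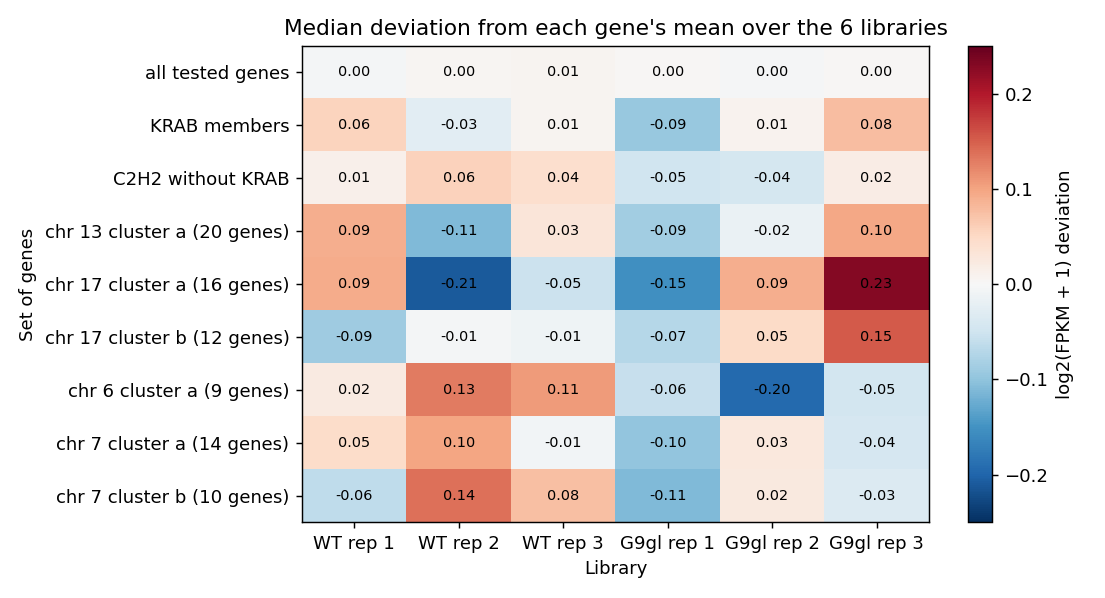
Median deviation of log2(FPKM + 1) from each gene's mean over the 6 libraries (colour and printed value), by library (columns) for all tested genes, both main protein classes and the 6 chromosomal clusters of at least 8 members (rows). The first cluster of chromosome 17 runs from -0.21 in WT replicate 2 to 0.23 in G9gl replicate 3, and all tested genes stay near 0.

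Within that cluster Zfp53 rose while its nearest neighbours did not pass. Zfp51 had 22.6, 16.9 and 19.4 FPKM in WT and 17.6, 22.0 and 27.6 FPKM in G9gl (adjusted p 0.48). Zfp52 (0.77) and Zfp54 (0.25) likewise overlapped between groups. Whether Zfp53 differed from its neighbours was not tested. Chromosome 7 held the most members, 72, of which 0 rose and 4 fell (Zfp524, Zfp784, Zfp553 and Zfp668), and chromosome 17 held 35, of which 2 rose (Zfp53 and Zfp870) and 1 fell (Zfp318). On all chromosomes together 11.8% of all tested genes rose and 11.6% fell.

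Partners of the KRAB box were measured beside the family. Of 22 corepressor and heterochromatin genes, 1 rose and 4 fell, 22.7% called, close to the 23.4% of all tested genes. With the trend on GC content and length removed 3 rose and 3 fell, and with libraries rescaled to equal totals 1 rose and 8 fell. Trim28 had 58.3 ± 3.42 and 54.3 ± 2.23 FPKM (adjusted p 0.32) and Setdb1 had 18.04 ± 0.875 and 16.4 ± 1.21 FPKM (0.30). Hdac1, a histone deacetylase gene, rose from 157 ± 5.49 to 192 ± 2.60 FPKM (0.0033). Wiz, a zinc finger partner of the G9a methyltransferase, fell from 8.52 ± 0.402 to 5.03 ± 1.07 FPKM (0.0055). Morc3 and Chd4 fell 1.27-fold and 1.26-fold (0.0074 and 0.014), and Ehmt1 fell 1.22-fold (0.032). The call for Chd4 was lost without WT replicate 2 or G9gl replicate 3 (0.062 and 0.051), and that for Ehmt1 without any library but WT replicate 1 (0.055 to 0.096).

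Among 22 genes of AU-rich element binding and deadenylation, in which Zfp36 acts, 0 rose and 3 fell by limma (13.6% called against 23.4% of all tested genes). Of these 22 genes 8 had an unadjusted p under 0.05, as had 3689 of all 10122 tested genes. Every G9gl library lay below every WT library in 10 of these 22 genes, 45.5% against 20.5% of all tested genes. With libraries rescaled to equal totals 13 of the 22 fell, where 24.7% of all tested genes did. Zfp36l2, a paralog of Zfp36, fell 1.49-fold, from 51.9 ± 0.213 to 34.6 ± 1.81 FPKM (adjusted p 2.4e-04), while Zfp36l1 had 140.4 ± 4.07 and 147 ± 7.27 FPKM (0.40). Khsrp, which binds AU-rich elements, fell 1.43-fold (0.0085). Cnot3, a deadenylase complex gene, fell 1.21-fold (0.049), a call held without G9gl replicate 2 alone among the omissions (0.065 to 0.15 without the others).

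Other zinc finger gene groups were tested in the same fit. In it 23.4% of all 10122 tested genes were called and 3689 had an unadjusted p under 0.05. Of 36 tested Zbtb genes 2 rose and 3 fell (13.9% called), of 14 Zscan and Zkscan genes 1 rose and 1 fell (14.3%), and of 15 Zc3h genes 2 rose and 0 fell (13.3%, with 3 at an unadjusted p under 0.05). The Zscan rise, Zscan18, was lost on omitting WT replicate 1, WT replicate 3, G9gl replicate 2 or G9gl replicate 3, and 1 of the Zc3h rises, Zc3h12d, without any 1 library but G9gl replicate 3. With libraries rescaled to equal totals 8 Zbtb, 3 Zscan or Zkscan and 2 Zc3h genes fell, where 24.7% of all tested genes did. Zbtb46 and Zscan18 reached 1 FPKM in the G9gl libraries only, so the filter itself required them to differ. Zbtb46, a dendritic cell factor, rose from 0.409 ± 0.233 to 1.95 ± 0.461 FPKM (adjusted p 0.0029), and Zbtb7a fell from 31.0 ± 0.338 to 23.3 ± 1.06 FPKM (0.0025). Zscan20 fell from 8.49 ± 0.832 to 5.20 ± 0.114 FPKM (0.0023). Zc3h12c, a CCCH gene of the regnase family, rose from 1.25 ± 0.222 to 3.38 ± 0.666 FPKM (0.0022).

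Follicular B cell markers were high in all libraries, summing to 8859 to 9159 FPKM in WT and 8029 to 8416 FPKM in G9gl. Of these 11 markers 1 was higher and 6 were lower, 9.09% and 54.5%, against 11.8% and 11.6% of all tested genes. Of 12 tested macrophage markers 10 were higher, 83.3% against 11.8% of all tested genes. The list summed to 24.1 to 31.7 FPKM in WT and 62.5 to 69.7 FPKM in G9gl. In all 12 every G9gl library lay above every WT library, against 20.3% of all tested genes. Axl, at a mean of 0.856 FPKM over the 6 libraries, was among these markers. For any marker that reached 1 FPKM in the G9gl libraries only, the filter itself required this separation. The median log2 fold change of the 12 markers was 0.89. Adgre1 was among these 12, at 2.42 ± 0.116 and 2.95 ± 0.396 FPKM in WT and G9gl, and was not called (adjusted p 0.28). T cell markers summed to 6.01 to 8.17 and 8.21 to 9.19 FPKM, with 0 of 3 tested called by limma and 0 at an unadjusted p under 0.05. Of 6 plasma cell markers 2 rose and 1 fell (33.3% and 16.7%). Of 19 cell dissociation and early response genes, a class to which Zfp36 belongs, 6 rose and 3 fell (31.6% and 15.8%). Again 11.8% and 11.6% of all tested genes rose and fell. No marker on these lists was at 0 in every library. Their part in the values of low-level members such as Zfp365 was not tested, and in bulk libraries fewer expressing cells and less RNA per cell cannot be told apart.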

How the data were processed

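RNA was measured in 6 libraries of sorted splenic Fo B cells, 3 WT and 3 G9gl, grouped by genotype and title. The submitters' processing notes name Cufflinks 2.2.1, TopHat2 2.0.13, SAMtools 0.1.19, Bowtie2 2.2.3 and the mm10 build. The authors deposited 1 FPKM value for each gene symbol. The unit was read from the tools and the values. No source used here gives the annotation, filters or scaling of libraries. Per the labels' protocols, Trizol RNA was made into SMART-Seq HT cDNA and Nextera libraries, which keep no strand, so overlapping genes cannot be told apart.

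The 10122 genes reaching 1 FPKM in 3 or more libraries were fitted with limma 3.58.1 in R 4.3.3 (lmFit, eBayes with a trend) on log2(FPKM + 1), with a term for genotype alone, and adjusted by Benjamini-Hochberg. On simulated data the fit was tested for known changes. A fold change on this scale understates low genes. FPKM depends on all mapped fragments, so abundant transcripts shift other genes. Exact permutation of 3 against 3 libraries cannot go below 0.1 and was not used.

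Depth was estimated from the FPKM steps of genes with 1 annotated transcript of at least 1500 bases, after subtracting 250 bases, a value set after seeing the data. Positions, transcript lengths and GC content came from GENCODE vM21 (GRCm38, as mm10) by symbol, for 96.2% of tested genes and 275 members. No protein table was given, so classes came from translating GENCODE coding sequences, in place of the planned RefSeq proteins: KRAB where at most 1 of 8 fixed positions of the A box core differed, C2H2 by finger spacing. Promoter windows came from RefSeq, for 235 members.

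The members and lists were chosen with earlier results of these data known. Named members are a panel, the 10 highest and 10 lowest called without overlap, the 6 most abundant, those nearest the threshold and those past it in 1 group only. Up to 4 genes per companion list follow their p. Zfp740, Zfp668, Zfp746 and Zfp488, the neighbours of Zfp53, and further list genes were named after their values were seen.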

Additional observations from a re-analysis of the deposited data

How the results depend on the processing

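Counts of called members were recomputed under 20 alternatives: other pseudocounts, filters, scalings and fits, a replicate block, a removed trend on GC content and transcript length, and each library left out. Of the members lower, 15 in the main analysis, 6 were counted with no filter on low values and 57 with libraries rescaled to equal totals. Of those higher, 6 in the main analysis, 3 were counted with a filter of at least 5 FPKM, which keeps 166 members. Under that filter 12.5% of 8022 genes were higher. Leaving out 1 library gave 4 to 10 higher, 5 to 14 lower and a median log2 fold change of -0.067 to 0.0049, against -0.034. Over all 10122 tested genes these omissions gave 827 to 1136 higher and 718 to 1172 lower. Rescaling to equal totals gave a median of -0.14 over the members. With the replicate number as a block, 4 members were higher and 12 lower, where 1044 and 988 of all 10122 tested genes were. When a trend on GC content and length was also taken out, 7 and 12 members were, and 909 and 995 of 9733 genes. The labels tie no libraries by replicate number, and deviations of same-numbered libraries correlated at -0.069 to 0.099. Without Zfp365 and Zfp827, chosen after seeing the data, counts were 5 and 14. Over all genes the calls without a filter on low values were 968 higher and 785 lower of 19079, and after rescaling 730 and 2497 of 10122. Of 21 called members, 8 were called in each alternative that fitted them. Among 728 comparisons of named members, 15 had the other sign, in 5 members that were not called (Zfp36, Zfp143, Zfp148, Zfp511 and Zfp622), and 0 called members changed sign. Causes were not tested, except that fewer samples or members enter some alternatives. Values near 1 FPKM rest on few fragments, and a gene near that level can differ without being called.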
